A study of Homo sapiens with 11 samples.

Results

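The expression of 8 genes of cholesterol synthesis and its control was followed across 11 arrays: HMGCS1, SQLE, IDI1, FDFT1, DHCR7 and LSS, which encode enzymes of the pathway, SREBF2, which encodes its transcription factor SREBP2, and INSIG1, a target and brake of that factor. These 8 genes of 31325 measured were taken as a list of SREBP2 and sterol genes, by name. None of the 8 is a receptor for cholesterol uptake, so uptake is described below from 12 further genes of uptake, transport and efflux. The arrays were Illumina BeadChips of total RNA from MDA-MB-231 cells, a breast carcinoma line, and SKOV3 cells, an ovarian carcinoma line. The sample labels give SKOV3, while the methods of the authors name SKOV3.ip1. Each line was transfected either with a mimic of the microRNA miR-365a-3p or with a control miRNA, and no other allele or agent is given in the labels. MDA-MB-231 had 3 arrays with miR-365a-3p and 3 with control miRNA, and SKOV3 had 3 with miR-365a-3p and 2 with control miRNA. The sample labels give 48 h of transfection for all 11 arrays, while the series description gives 24 h. Each line is a single established culture line treated with an added mimic and compared with a control miRNA. Nothing in the labels says that replicates came from separate cultures, so p-values measure only the spread between these arrays, which may be technical.

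Cells make cholesterol from acetyl-CoA through mevalonate, farnesyl diphosphate, squalene and lanosterol, and they take it up with lipoproteins. SREBP2 is held in the endoplasmic reticulum by SCAP and INSIG proteins while sterol is plentiful, and when sterol falls it is carried to the Golgi, cut, and enters the nucleus to switch on genes of both routes. A microRNA guides argonaute to mRNAs that pair with its seed, which usually lowers those mRNAs.

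The added microRNA is shown because it is the agent added to the treated cells, with its seed, bases 2 to 8, in capitals. The sequence is from RefSeq, build GRCh38.p14, chr16:14309340-14309361 on the plus strand.
hsa-miR-365a-3p: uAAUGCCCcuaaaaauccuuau

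The 250 bases before the annotated start of SREBF2, HMGCS1 and IDI1 are shown because these are the factor, the earliest enzyme of the list in the pathway and the enzyme with the largest change with miR-365a-3p among the 8. They are from RefSeq, build GRCh38.p14, at chr22:41832855-41833104 on the plus strand, chr5:43313413-43313662 on the minus strand and chr10:1056705-1056954 on the minus strand. Capitals mark matches on either strand to TCACNCCAC (a form of the sterol regulatory element, the site SREBP binds), CCAAT (the CCAAT box) and GGGCGG (the GC box).
SREBF2: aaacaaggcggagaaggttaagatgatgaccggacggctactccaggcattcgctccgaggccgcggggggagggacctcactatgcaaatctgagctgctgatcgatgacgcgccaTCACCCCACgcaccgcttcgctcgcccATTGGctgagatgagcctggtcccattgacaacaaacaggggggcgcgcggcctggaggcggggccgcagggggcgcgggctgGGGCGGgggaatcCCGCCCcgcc
HMGCS1: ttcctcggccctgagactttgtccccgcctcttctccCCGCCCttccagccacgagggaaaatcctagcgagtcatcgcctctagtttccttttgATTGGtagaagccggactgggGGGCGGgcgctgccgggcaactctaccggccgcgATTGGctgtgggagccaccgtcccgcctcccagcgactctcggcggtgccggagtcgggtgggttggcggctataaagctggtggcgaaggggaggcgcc
IDI1: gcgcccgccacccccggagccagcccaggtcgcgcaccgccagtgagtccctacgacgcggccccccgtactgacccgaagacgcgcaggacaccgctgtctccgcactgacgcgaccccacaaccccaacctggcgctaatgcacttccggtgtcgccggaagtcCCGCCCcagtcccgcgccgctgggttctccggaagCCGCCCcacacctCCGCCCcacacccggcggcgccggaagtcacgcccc

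Promoter windows were matched for 6 of the 8 genes, and not for SQLE and FDFT1. The sterol regulatory element letters were present in the window of SREBF2, at 133 to 125 bases before the start, and in 0.883% of 35116 promoter windows of the same length. They were found in 0 windows of the other 5 matched genes, HMGCS1, INSIG1, IDI1, DHCR7 and LSS, which says only that these letters are not in those windows. CCAAT was present in 32% of all windows, GGGCGG in 42.6% and the E-box CACGTG in 6.34%. In the window of HMGCS1, CCAAT was found on the minus strand at 155 to 151 and at 100 to 96 bases before the start. The window of INSIG1 held CACGTG at 55 to 50 bases before the start. HMGCS1 and DHCR7 have 2 windows each in the table and IDI1 has 3, and the window at the annotated gene start is the one shown. A match describes letters only and says nothing of binding in these cells.

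The deposited log2 values had different distributions on the 11 arrays. Their 75th percentile was 7.86 to 7.93 in MDA-MB-231 controls against 7.56 to 7.65 with miR-365a-3p, and 7.98 to 8.04 in SKOV3 controls against 7.67 to 7.8 with miR-365a-3p. The arrays were therefore quantile normalized, and the values below are log2 signals after that step unless said to be as deposited. Relative to the normalized values, the 6853 features with a mean above 8 shifted by -0.26 in the MDA-MB-231 comparison and by -0.18 in the SKOV3 comparison when the deposited values were used, against -0.03 over all 31325 features in both. This difference in spread moves with treatment, and its part in the results was not tested. Against the labelled lines, ERBB2, amplified in SKOV3, averaged 10.86 in SKOV3 controls and 7.61 in MDA-MB-231 controls. Not all of the 16 marker genes read separated the lines. VIM was bright in both (13.7 in SKOV3 controls and 13.79 in MDA-MB-231 controls). MUC16 (7.38 and 7.37) and CDH1 (7.43 and 7.27) lay near the normalized array median of 7.38 in both, so they do not help to tell the lines apart. The number of arrays limits the precision of every value, and in bulk RNA fewer cells of a kind and less RNA per cell cannot be told apart.

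IDI1 was the gene of the 8 that rose in both cell lines with miR-365a-3p. SQLE rose in MDA-MB-231 after quantile normalization but not as deposited (-0.02). After that normalization none of the 8 passed the test as lower in either line. The calls turned with the scaling. As deposited, DHCR7 and LSS passed as lower in MDA-MB-231, SREBF2 and LSS passed as lower in SKOV3, and IDI1 did not pass in SKOV3. In MDA-MB-231, 2 of 8 genes passed an adjusted p of 0.05 (limma, Benjamini-Hochberg over all features), where 26.1% of all features did. In SKOV3, 1 of 8 passed, where 14.4% of all features did. The median log2 difference of the 8 genes was 0.01 in MDA-MB-231 and -0.09 in SKOV3, against 0.006 and 0.007 over all features. As deposited the medians were -0.15 and -0.16, against -0.013 and -0.018 over all features. At an unadjusted p under 0.05 the counts were the same, 2 higher in MDA-MB-231, 1 higher in SKOV3 and 0 lower in both. Of all features, 18.7% were higher and 15% lower in MDA-MB-231 at that threshold, and 13.8% higher and 10.9% lower in SKOV3.

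**Figure D1:**
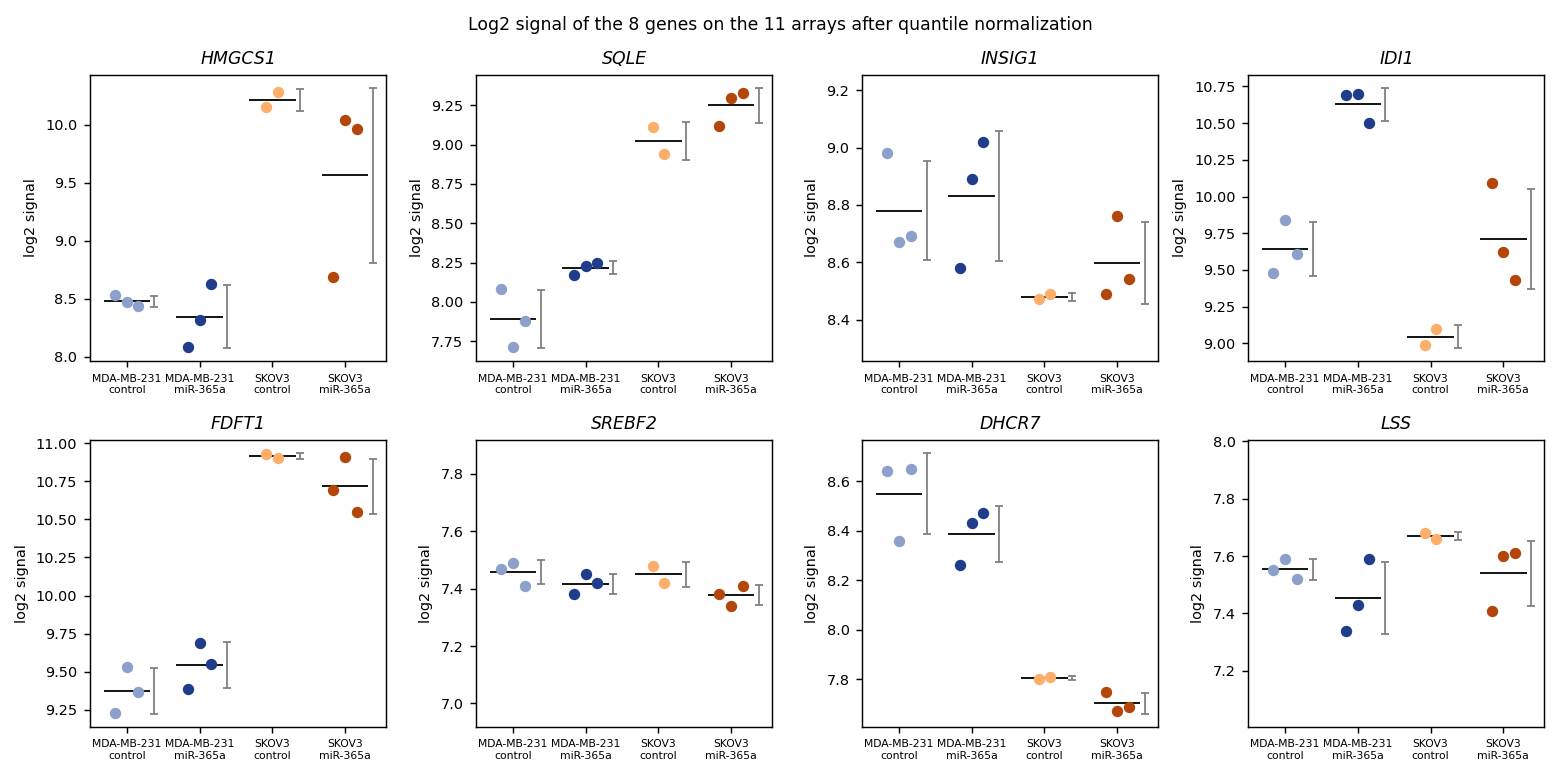
Log2 signal after quantile normalization (y axis, scaled separately for each gene) of the 8 genes in the 4 groups of arrays (x axis). Each point is 1 array, black lines are group means and grey bars are 1 SD; IDI1 with miR-365a-3p lies above its controls in both lines, and HMGCS1 in SKOV3 has 1 low array at 8.69.

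IDI1 encodes isopentenyl diphosphate isomerase, which makes the isoprenoid units that are joined into farnesyl diphosphate. In MDA-MB-231 its log2 signal was 9.48, 9.84 and 9.61 on the control arrays and 10.69, 10.7 and 10.5 with miR-365a-3p. In SKOV3 it was 8.99 and 9.1 on the control arrays and 10.09, 9.62 and 9.43 with miR-365a-3p. The groups did not overlap in either line, and the first SKOV3 array with miR-365a-3p was the highest of its group. The log2 difference was 0.98 ± 0.16 (SE; adjusted p = 0.00208) in MDA-MB-231, a 1.98-fold rise. It was 0.67 ± 0.18 (SE; adjusted p = 0.0395) in SKOV3, a 1.59-fold rise. The exact permutation test over both lines, two-sided over 200 arrangements with a smallest possible p of 0.005, gave p = 0.01. As deposited, the difference was 0.89 in MDA-MB-231 (adjusted p = 0.00539) and 0.52 in SKOV3, where it no longer passed (adjusted p = 0.116). The SKOV3 call was also lost after median centring (0.55, adjusted p = 0.091), with cyclic loess (adjusted p = 0.11) and with each line alone (adjusted p = 0.159). The SKOV3 call was lost without any of 7 arrays: each MDA-MB-231 array with miR-365a-3p (adjusted p = 0.0545, 0.0632 and 0.0525), MDA-MB-231 control replicate 3 (0.063), SKOV3 miR-365a-3p replicate 2 (0.0532), and SKOV3 control replicates 1 and 2 (0.221 and 0.154). IDI1 being called in both lines in the same direction is 1 of 8 genes, where 5.76% of all features were higher in both.

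SQLE encodes squalene epoxidase, which oxidizes squalene and is an early oxygen-using step of the sterol branch. Its log2 signal in MDA-MB-231 was 8.08, 7.71 and 7.88 on the control arrays and 8.17, 8.23 and 8.25 with miR-365a-3p. The miR-365a-3p arrays lay just above the controls and close together. The log2 difference was 0.33 ± 0.095 (SE; adjusted p = 0.0318), a 1.26-fold rise. In SKOV3 the arrays were 9.11 and 8.94 in controls and 9.12, 9.3 and 9.33 with miR-365a-3p. The difference there was 0.22, with a 95% interval of -0.02 to 0.46 (adjusted p = 0.257). The rise in MDA-MB-231 was not present as deposited, where the difference was -0.02 (adjusted p = 0.951), nor after centring each array on its median, where it was 0.02 (adjusted p = 0.939). It was also lost without MDA-MB-231 miR-365a-3p replicate 1, 2 or 3 (adjusted p = 0.059, 0.0844 and 0.0866) and without control replicate 2 or 3 (0.091 and 0.0892). The permutation p over both lines was 0.01, and 0.885 as deposited.

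HMGCS1 encodes cytosolic HMG-CoA synthase, which makes the substrate of HMG-CoA reductase. In SKOV3 its log2 signal was 10.15 and 10.28 in controls and 8.69, 10.04 and 9.96 with miR-365a-3p. All 3 arrays with miR-365a-3p lay below both controls, and the first lay far below the other two. The difference was -0.65 with a 95% interval of -1.46 to 0.16 (adjusted p = 0.331), and without replicate 1 of the SKOV3 miR-365a-3p arrays it was -0.22. In MDA-MB-231 the arrays were 8.53, 8.47 and 8.44 in controls and 8.09, 8.32 and 8.63 with miR-365a-3p, and the groups overlapped. The difference there was -0.13, with an interval of -0.86 to 0.59 (adjusted p = 0.854). As deposited, the MDA-MB-231 arrays were 8.6, 8.65 and 8.59 in controls and 7.77, 8.15 and 8.44 with miR-365a-3p, without overlap. The deposited difference was -0.5 in MDA-MB-231 (adjusted p = 0.407) and -0.74 in SKOV3 (adjusted p = 0.289), and neither passed.

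FDFT1 encodes squalene synthase, the first step committed to sterols. Its difference was 0.17 in MDA-MB-231, with a 95% interval of -0.08 to 0.42, and -0.2 in SKOV3, with an interval of -0.49 to 0.08. Neither passed the test (adjusted p = 0.363 and 0.403), and arrays overlapped in both lines.

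LSS, which closes squalene epoxide into lanosterol, and DHCR7, which makes the last reduction to cholesterol, depended on the scaling. The DHCR7 arrays in MDA-MB-231 were 8.64, 8.36 and 8.65 in controls and 8.26, 8.43 and 8.47 with miR-365a-3p, a difference of -0.17 (adjusted p = 0.203). As deposited the difference was -0.52 (adjusted p = 0.00451), and after median centring it was -0.49 (adjusted p = 0.00551). Without the second MDA-MB-231 control it was -0.26 and passed (adjusted p = 0.0125). In SKOV3 the DHCR7 difference was -0.1 (adjusted p = 0.622), and -0.37 as deposited (adjusted p = 0.0504), and neither passed. The LSS difference was -0.1 in MDA-MB-231 (adjusted p = 0.421) and -0.13 in SKOV3 (adjusted p = 0.391), with all arrays between 7.34 and 7.68. As deposited LSS fell by 0.2 in MDA-MB-231 (adjusted p = 0.0456) and by 0.32 in SKOV3 (adjusted p = 0.0116). After median centring LSS was the gene of the 8 called in SKOV3, with a difference of -0.29 (adjusted p = 0.0211). The deposited values called 1 of 8 genes higher and 2 lower in MDA-MB-231, where 7.26% of all features were higher and 17.9% lower, and 2 of 8 lower and 0 higher in SKOV3, where 14% of all features were lower and 3.83% higher.

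**Figure D2:**
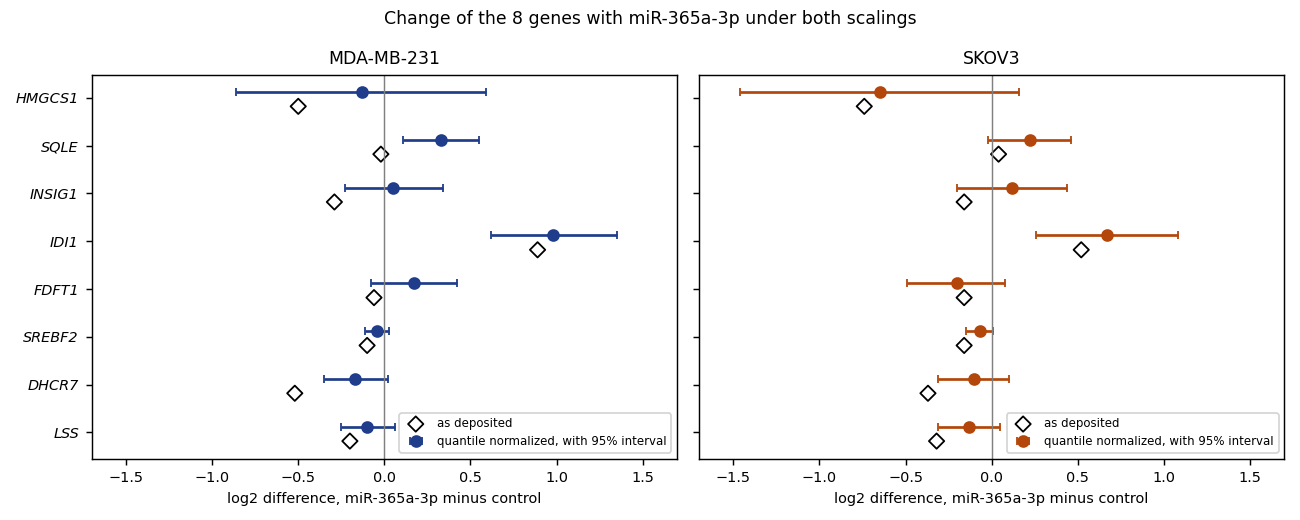
Log2 difference, miR-365a-3p minus control (x axis), of the 8 genes (y axis) in MDA-MB-231 (left) and SKOV3 (right). Filled points with bars are quantile normalized values with 95% intervals and open diamonds are differences of the values as deposited; IDI1 lies right of 0 in both lines under both scalings, and the diamonds lie left of the points for most other genes.

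SREBF2 itself was dim. Its log2 signal was 7.47, 7.49 and 7.41 in MDA-MB-231 controls and 7.38, 7.45 and 7.42 with miR-365a-3p. In SKOV3 it was 7.48 and 7.42 in controls and 7.38, 7.34 and 7.41 with miR-365a-3p. These levels lie near the array median of 7.38 after normalization. The difference was -0.04 in MDA-MB-231 (adjusted p = 0.489) and -0.07 in SKOV3 (adjusted p = 0.241), with a permutation p of 0.04 over both lines. As deposited, SREBF2 fell by 0.16 in SKOV3 (adjusted p = 0.0355). INSIG1 differed by 0.05 in MDA-MB-231, with an interval of -0.23 to 0.34, and by 0.12 in SKOV3, with an interval of -0.2 to 0.44. As deposited its differences were -0.29 and -0.16, so its direction turned with the scaling, and no call was made under either.

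Over the 8 genes and both lines, the permutation test gave p under 0.05 for 3 genes, SQLE, IDI1 and SREBF2, where 33.8% of all features had such a p. As deposited it did so for 5 genes, HMGCS1, IDI1, SREBF2, DHCR7 and LSS, where 36.4% of all features did, and SQLE was not among them. Arrays of the groups did not overlap for 2 of 8 genes in MDA-MB-231, where 38% of all features did not, and for 7 of 8 in SKOV3, where 41.8% did not. Of those 7 genes, IDI1 alone passed the test there. They did not share a direction: SQLE, INSIG1 and IDI1 lay above the controls, and HMGCS1, SREBF2, DHCR7 and LSS below. The comparison is of 3 arrays with 2. The lowest miR-365a-3p array and the highest control were 9.12 and 9.11 for SQLE, and both 8.49 after rounding for INSIG1.

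None of the 8 genes changed differently between the lines by the interaction test, where 2.54% of all features did, 1.24% with a higher and 1.3% with a lower change in MDA-MB-231. The count was also 0 at an unadjusted p under 0.05, where 12.8% of all features passed. The nearest was FDFT1, whose change was higher by 0.37 in MDA-MB-231, with an interval of -0.01 to 0.75 (adjusted p = 0.401).

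The control cells of the lines differed in 4 of the 8 genes, 3 lower and 1 higher in MDA-MB-231, where 16.1% of all features differed, 8.34% lower and 7.76% higher. FDFT1 was lower in MDA-MB-231, with 9.23, 9.53 and 9.37 against 10.93 and 10.9 in SKOV3, a difference of -1.54 ± 0.12 (SE; adjusted p = 5.32e-05). HMGCS1 was lower by -1.74 (adjusted p = 0.00969) and SQLE by -1.14 (adjusted p = 0.000121). DHCR7 was higher in MDA-MB-231, by 0.75 (adjusted p = 0.000573). None of these 4 groups of control arrays overlapped between lines. The HMGCS1 call was lost without the first or the second SKOV3 control (adjusted p = 0.0606 and 0.0787). IDI1 was higher by 0.6 in MDA-MB-231 controls without passing (adjusted p = 0.0563), and it passed without SKOV3 miR-365a-3p replicate 1 or 3 (adjusted p = 0.00742 and 0.0344). These comparisons use the same control arrays as those with miR-365a-3p, so they are not independent of them.

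Among arrays of the same group, the 8 genes did not move as 1 block. Over the 28 pairs, the correlation of the deviations from group means had a median of 0.13 and was above 0 for 17 pairs. HMGCS1 and LSS deviated together (r = 0.86 over 11 arrays), and HMGCS1 and IDI1 deviated in opposite directions (r = -0.82), as did SQLE and IDI1 (r = -0.82). The first SKOV3 array with miR-365a-3p was the lowest of its group for HMGCS1, SQLE, INSIG1 and LSS and the highest for IDI1 and DHCR7. That array had the largest deviation of the 11 for HMGCS1 (-0.87) and for IDI1 (0.38), and the correlations were not taken without it. The arrays share normalization and few degrees of freedom, so the correlations are descriptions.

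**Figure D3:**
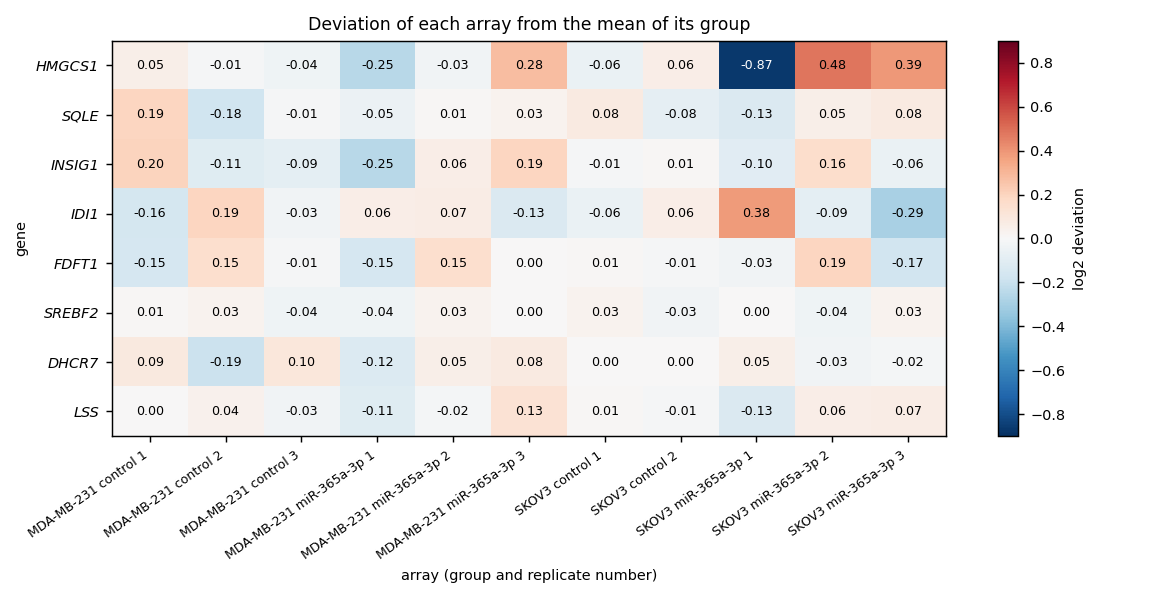
Deviation of each array from its group mean (log2, colour and printed value) for the 8 genes (rows) on the 11 arrays (columns). The first SKOV3 array with miR-365a-3p stands apart, low for HMGCS1 and high for IDI1.

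The genes whose 11 values followed each of the 8 most closely, among 6853 features with a mean above 8, were C14orf104 (r = 0.991) and PSMC6 (r = 0.988) for IDI1, SOX4 (0.987) and CGNL1 (0.986) for HMGCS1, and CAV2 (0.987) and NCK1 (0.986) for SQLE. They were LOC642755 (0.992) and RNASET2 (0.988) for FDFT1, GAS6 (0.993) and FJX1 (0.985) for DHCR7, RBBP9 (0.97) and AK3 (0.938) for INSIG1, LTA4H (0.972) and STAT2 (0.905) for LSS, and UQCRFS1 (0.81) for SREBF2. The 11 points share 2 cell lines and 1 normalization, and these values are descriptions.

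The rest of the pathway was read from 4 further lists. Of 47 further genes, 8 were higher and 21 lower in MDA-MB-231, where 14.4% and 11.7% of all features were, and 4 were higher and 11 lower in SKOV3, where 7.25% and 7.11% were. In both lines 2 were higher and 10 lower, where 5.76% and 5.39% of all features were. The median log2 difference of the 47 was -0.13 in MDA-MB-231 and -0.01 in SKOV3. As deposited, 5 were higher and 26 lower in MDA-MB-231, where 7.26% and 17.9% of all features were. In SKOV3 as deposited, 1 was higher and 18 lower, where 3.83% and 14% were. Of the 47 genes, 46 had a mean signal above the median of feature means, as did all 8 genes followed above. Only 15662 features lay above that median, and the shares of all features also cover the dimmer ones. Shares among the 15662 alone are not given, so these counts cannot be read as enrichment over equally bright features. The same limit holds for the shares given beside the 8 genes and beside each list.

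Among the other 14 synthesis enzymes, 5 were higher and 2 lower in MDA-MB-231, where 14.4% and 11.7% of all features were. In SKOV3, 1 was higher and 1 lower, where 7.25% and 7.11% were. As deposited, 2 were higher and 3 lower in MDA-MB-231 (7.26% and 17.9% of all features). In SKOV3 as deposited, 0 were higher and 2 lower (3.83% and 14%). The median difference in MDA-MB-231 was -0.1 as deposited in place of 0.2. MSMO1, a sterol C4-demethylation enzyme measured under its older symbol, had signals of 8.69 ± 0.076 (SD, n = 3) in MDA-MB-231 controls and 9.76 ± 0.055 (SD, n = 3) after the mimic. It rose by 1.07 in MDA-MB-231 (adjusted p = 3.73e-05) and by 0.37 in SKOV3 (adjusted p = 0.0231). The SKOV3 call of MSMO1 was lost without SKOV3 miR-365a-3p replicate 1 (adjusted p = 0.0621) or SKOV3 control replicate 1 or 2 (0.164 and 0.0932), as well as with the deposited values (0.0507), each line alone (0.128) and the intensity trend (0.114). HSD17B7, which acts in the same demethylation and has near-identical copies in the genome that a probe may not separate, fell by 1.63 in MDA-MB-231 (adjusted p = 0.000821) and by 2.2 in SKOV3 (adjusted p = 0.000692).

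Among 13 other regulators, 1 was higher and 4 lower in MDA-MB-231, where 14.4% and 11.7% of all features were. In SKOV3, 2 were higher and 3 lower, where 7.25% and 7.11% were. As deposited, 1 was higher and 7 lower in MDA-MB-231 (7.26% and 17.9% of all features). In SKOV3 as deposited, 0 were higher and 5 lower (3.83% and 14%). SCAP, the escort that carries SREBP to the Golgi, averaged 9.41 ± 0.32 (SD, n = 3) in MDA-MB-231 controls and 7.82 ± 0.18 (SD, n = 3) after the mimic. It fell by 1.59 (adjusted p = 0.00123), and by 1.06 in SKOV3 (adjusted p = 0.0274). MYLIP, a ubiquitin ligase, fell by 0.24 in MDA-MB-231 (adjusted p = 0.0357) and by 0.32 in SKOV3 (adjusted p = 0.0299). The SKOV3 call of SCAP was lost without SKOV3 miR-365a-3p replicate 3 (adjusted p = 0.0584) or either SKOV3 control (0.167 and 0.121), and with each line alone (0.111). The MYLIP call was lost in MDA-MB-231 without MDA-MB-231 miR-365a-3p replicate 1 (adjusted p = 0.103), MDA-MB-231 control replicate 1 or 3 (0.119 and 0.101) or either SKOV3 control (0.0548 and 0.054), and in SKOV3 without miR-365a-3p replicate 1 or 3 (0.0765 and 0.0837) or either control (0.106 and 0.206). It was also lost with each line alone in MDA-MB-231 (0.0756) and with the intensity trend in MDA-MB-231 and SKOV3 (0.1 and 0.0771).

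Of 12 genes of uptake, transport and efflux, 2 were higher and 9 lower in MDA-MB-231, where 14.4% and 11.7% of all features were. In SKOV3, 1 was higher and 4 lower, where 7.25% and 7.11% were. As deposited, 2 were higher and 9 lower in MDA-MB-231 (7.26% and 17.9% of all features). In SKOV3 as deposited, 1 was higher and 8 lower (3.83% and 14%). NPC1, which moves cholesterol out of lysosomes, fell by 1.34 (adjusted p = 0.000272) and by 0.81 (adjusted p = 0.0115). ABCA1, which exports cholesterol to apolipoproteins, fell by 0.77 (adjusted p = 0.000323) and by 0.76 (adjusted p = 0.00129). SCARB1, a high-density lipoprotein receptor, fell by 0.25 and 0.43 (adjusted p = 0.00714 and 0.00163), while LIPA, the lysosomal cholesterol ester lipase, rose by 0.94 and 0.95 (adjusted p = 0.00245 and 0.00787). In SKOV3 the NPC1 call was lost without control replicate 1 or 2 (adjusted p = 0.0652 and 0.0982), and the LIPA call was lost without control replicate 2 (0.0865) and with each line alone (0.0527).

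Of 8 genes of fatty acid synthesis, 0 were higher and 6 lower in MDA-MB-231, where 14.4% and 11.7% of all features were. In SKOV3, 0 were higher and 3 lower, where 7.25% and 7.11% were. As deposited, 0 were higher and 7 lower in MDA-MB-231 (7.26% and 17.9% of all features). In SKOV3 as deposited, 0 were higher and 3 lower (3.83% and 14%). FASN, the fatty acid synthase, fell by 2.02 in MDA-MB-231 (adjusted p = 5.93e-06). It fell by 2.31 in SKOV3 (adjusted p = 8.7e-06). ACACA, which makes malonyl-CoA, fell by 1.02 and 1.1 (adjusted p = 0.00263 and 0.00603), and SCD, the stearoyl-CoA desaturase, by 1.61 and 1.11 (adjusted p = 0.000895 and 0.0185). In SKOV3 the SCD call was lost without control replicate 1 or 2 (adjusted p = 0.123 and 0.0983) and the ACACA call without control replicate 2 (0.0533). With each line alone the SKOV3 calls of SCD and ACACA were lost (adjusted p = 0.0605 and 0.071). The permutation p over both lines was 0.005, the smallest it can be, for FASN, ACACA, SCD, NPC1, ABCA1, SCARB1, LIPA, MYLIP and HSD17B7. It was 0.01 for SCAP and MSMO1. These genes were named because their arrays did not overlap in either line, in the same direction. That choice by itself puts this p at or near its smallest value, so it adds no support.

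**Figure D4:**
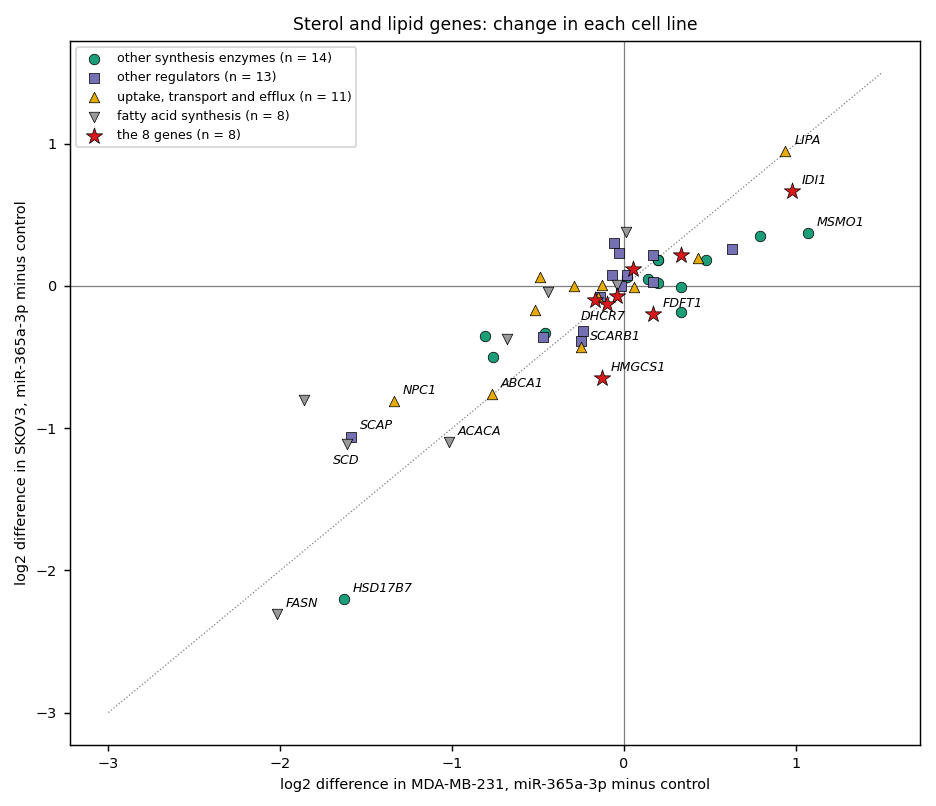
Log2 difference with miR-365a-3p in MDA-MB-231 (x axis) against SKOV3 (y axis) for the 8 genes (stars) and 46 further genes (other symbols by list), with the dotted line marking equal change. IDI1 lies at 0.98 and 0.67, and FASN lies at the lower left, at -2.02 and -2.31.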

How the data were processed

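Total RNA of the 11 samples was labelled and hybridised to Illumina BeadChips. The authors ran lumi with quantile normalization, and the deposited table holds log2 values for 31325 symbols, 1 for each array; whether a variance-stabilizing transformation came first is not given in the sources used here. Groups came from the sample labels. Since the deposited columns did not share a distribution, limma 3.58.1 (R 4.3.3) was used to quantile normalize all 11 arrays together. Group means of 4 groups were fitted (lmFit, eBayes), and p-values were adjusted by Benjamini-Hochberg over all features, with a threshold of 0.05. Single genes were also tested by exact permutation of treatment within lines, over 200 arrangements. The 8 genes, the 4 further lists and the tests were chosen with earlier results of these data known. Beside the 8, the genes named are those list genes called in both lines in the same direction with no overlap of arrays in either, and for each of the 8 the 2 features with the highest r; 2 of the genes so chosen are not reported here, though the counts include them. Of the list genes, 53 were found directly and 2 by an older symbol. The fit was tested on simulated data. Alternatives were the deposited values, median centring, cyclic loess within lines, each line alone, a replicate block, only features above the median of means, an intensity trend with robust moderation, and each array left out in turn. Sequences are from RefSeq tables of build GRCh38.p14; no genome was used. The form of the sterol regulatory element searched was chosen after matches to a longer form had been seen.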

Additional observations from a re-analysis of the deposited data

Results flagged for a closer look

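MSMO1 changed by different amounts in the lines by the interaction test: its rise was larger by 0.7 on the log2 scale in MDA-MB-231 (adjusted p = 0.0182). As deposited the difference was 0.53 and did not pass (adjusted p = 0.0523).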

How the results depend on the processing

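The count of 2 of the 8 genes called in MDA-MB-231 became 1 with cyclic loess within lines, each line alone, the replicate block and the intensity trend, and ranged from 1 to 2 with each array left out. It stayed at 2 after median centring, with DHCR7 (lower) in place of SQLE. The count of 1 in SKOV3 became 2 as deposited, stayed at 1 but for LSS (lower) in place of IDI1 after median centring, and became 0 with cyclic loess, each line alone and the replicate block, and ranged from 0 to 1 with each array left out. The count of 0 for the difference between lines held under every alternative run. The count of 4 between control lines ranged from 3 to 5. Of the 47 further genes, the 15 called in SKOV3 became 7 with each line alone and 9 with the replicate block, and ranged from 4 to 15 with each array left out, with 6 without the first SKOV3 control and 4 without the second. Leaving out a SKOV3 control leaves 1 array, which is assumed to vary like the other groups. The permutation count of 3 became 5 as deposited. The cause of these moves was not tested.

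The direction turned for SQLE in MDA-MB-231 as deposited (-0.02), for FDFT1 in MDA-MB-231 as deposited (-0.06) and centred (-0.03), and for INSIG1 as deposited (-0.29 in MDA-MB-231, -0.16 in SKOV3), centred (-0.25, -0.12) and, in MDA-MB-231, with cyclic loess (0). The SQLE difference between lines was -0.06 as deposited and centred. The SREBF2 difference between controls was -0.04 as deposited, -0.02 centred and -0.01 with the replicate block. With each array left out, INSIG1 ranged from -0.04 to 0.17 in MDA-MB-231 and from -0.16 to 0.06 between lines, SREBF2 between controls from -0.02 to 0.03, and the differences between lines of DHCR7 from -0.16 to 0.01 and of LSS from -0.03 to 0.09. None of these passed the test.

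Deviations of same-numbered arrays correlated at -0.12, 0.04 and 0.23 in MDA-MB-231 and at 0.04 and -0.07 in SKOV3. Those of different-numbered arrays in MDA-MB-231 reached from -0.47 to 0.35. Deviations must cancel within groups of 2 or 3 arrays, so these values cannot decide whether the numbers pair the samples. With the replicate block, calls were lost for SQLE in MDA-MB-231 (adjusted p = 0.116), for MYLIP in both lines (0.119 and 0.195), and in SKOV3 for IDI1 (0.0543), SCAP (0.124), NPC1 (0.0645) and SCD (0.138). Cyclic loess within lines gives no value for control lines, and each line alone gives none for differences between lines. Near the array median, where SREBF2 and LSS lie, signal over background limits what can be seen. With miR-365a-3p, FASN (7.59 in MDA-MB-231, 7.52 in SKOV3), SCARB1 (7.41 and 7.48) and ACACA in MDA-MB-231 (7.5) also lay near it. The same limit holds for the size of their falls.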
